A study of Homo sapiens with 14 samples.

Results

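Gliospheres, the sphere cultures grown from CD133+ cells of the human glioblastoma line U87MG, were compared with the cultures of the sorted negative population, called negative spheres, in 5 of the 14 arrays of the series: the 3 titled positive spheres without treatment and the 2 titled Negative spheres. All transcript clusters of the array entered the comparison, 67528 in all, and no expression value chose the samples. U87MG is an adherent tumor line kept in serum, and CD133 is a surface protein (gene PROM1) used to sort cells with stem-like behavior. After sorting by flow cytometry, both fractions were put in ultralow attachment plates in a serum-free neural medium with N2 and B27 supplements, leukemia inhibitory factor, epidermal growth factor at 20 ng/mL and basic fibroblast growth factor at 20 ng/mL, so the medium is common to both groups. The gliospheres were at passage 13, were untreated and stand for 1 parental line. For the negative cultures the sources differ. The labels call them spheroids of glioma cells that are not stem cells. The study's methods describe the sorted population that did not form spheres, kept as a control, and no passage is given. Its Results add that the negative fraction stopped making spheres with passaging, its cells then tending to grow attached. Sorting, growth as spheres and passage number therefore cannot be told apart in this comparison. The labels call the arrays biological replicates but do not tie them to separate cultures, so the p-values measure the spread between these samples, which may be technical.

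A sphere culture of a glioma line is a mixed, bulk sample, in which fewer cells of a type and less RNA per cell cannot be told apart. Cholesterol is made from acetyl-CoA through the mevalonate pathway and then, from squalene, through a chain of sterol intermediates. When the sterol content of the endoplasmic reticulum drops, the transcription factor SREBP2 (gene SREBF2) leaves it, is cut and switches on nearly every enzyme of that chain, while its relative SREBP1 does the same for fatty acid synthesis. Hypoxia-inducible factor (HIF) switches on glucose uptake and glycolysis where oxygen is short, as in dense cell masses, bone morphogenetic proteins (BMP) act on glioma stem cells through SMAD proteins and the ID genes, and the unfolded protein response raises the chaperones of the endoplasmic reticulum.

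Signals are given as log2 values of the deposited, normalized array, so a difference of 1 is a 2-fold change. The array median lay between 3.59 and 3.69 in the 5 arrays, and values near it cannot be told from background. Of the 67528 clusters, 291 (0.431%) were higher and 232 (0.344%) lower in gliospheres at a limma adjusted p below 0.05, and in all 523 the groups did not overlap. After quantile normalization the split was 217 higher and 447 lower. The limit used in the study's Results combines a fold of 2 or more with an unadjusted p no higher than 0.05, and by it 1328 clusters (1.97%) were higher and 493 (0.73%) lower. With 1 cluster for each of 22465 genes, 149 genes (0.663%) were higher and 159 (0.708%) lower, of which 99 and 147 code for proteins. Groups without overlap were common, at 2740 genes higher (12.2%) and 3264 lower (14.5%), so a member count of that kind is read against those shares. The median difference over all genes was -0.02, and 10101 of the 22465 had a positive difference. Counts of list members that passed are likewise read against 0.663% higher and 0.708% lower.

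The spread behind these calls came from a fit of 4 groups, in which 3 arrays each of gliospheres treated with conditioned medium of bone marrow (BMT) or Wharton's jelly (WJT) mesenchymal stem cells lend their spread. That spread was smaller: the median SD over 17131 clusters with a mean of at least 5 was 0.180 in BMT and 0.181 in WJT, against 0.354 in gliospheres and 0.216 in negative spheres. In a fit of the 5 arrays alone, 1 cluster passed, that of IGFBP1 (adjusted p 0.0158), while 5013 clusters had an unadjusted p below 0.05, and an exact permutation test of 3 against 2 arrays cannot go below 0.1. Gliospheres 3 stood most apart, with correlations within the group from 0.920 to 0.965 against 0.973 for the negative pair. Pairs across gliospheres and negative spheres correlated at 0.9166 to 0.9555, a range that overlaps the one within gliospheres. The count of higher clusters was 658 without gliospheres 1, 526 without gliospheres 3, 176 without gliospheres 2, 145 without negative spheres 1 and 225 without negative spheres 2, and that of lower clusters ran from 187 to 327. Of the 98 genes named below that passed, 36 lost the call without gliospheres 2, 13 without gliospheres 3 and 8 without gliospheres 1. Leaving out a negative array leaves 1 array in that group, which by itself widens the standard error. A call lost that way, here and below, therefore does not show that it rested on that array. The difference of HK2, -1.28, was then -1.27 and -1.29, whereas that of TIMP3, -2.72, was -1.84 without negative spheres 2.

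**Figure D1:**
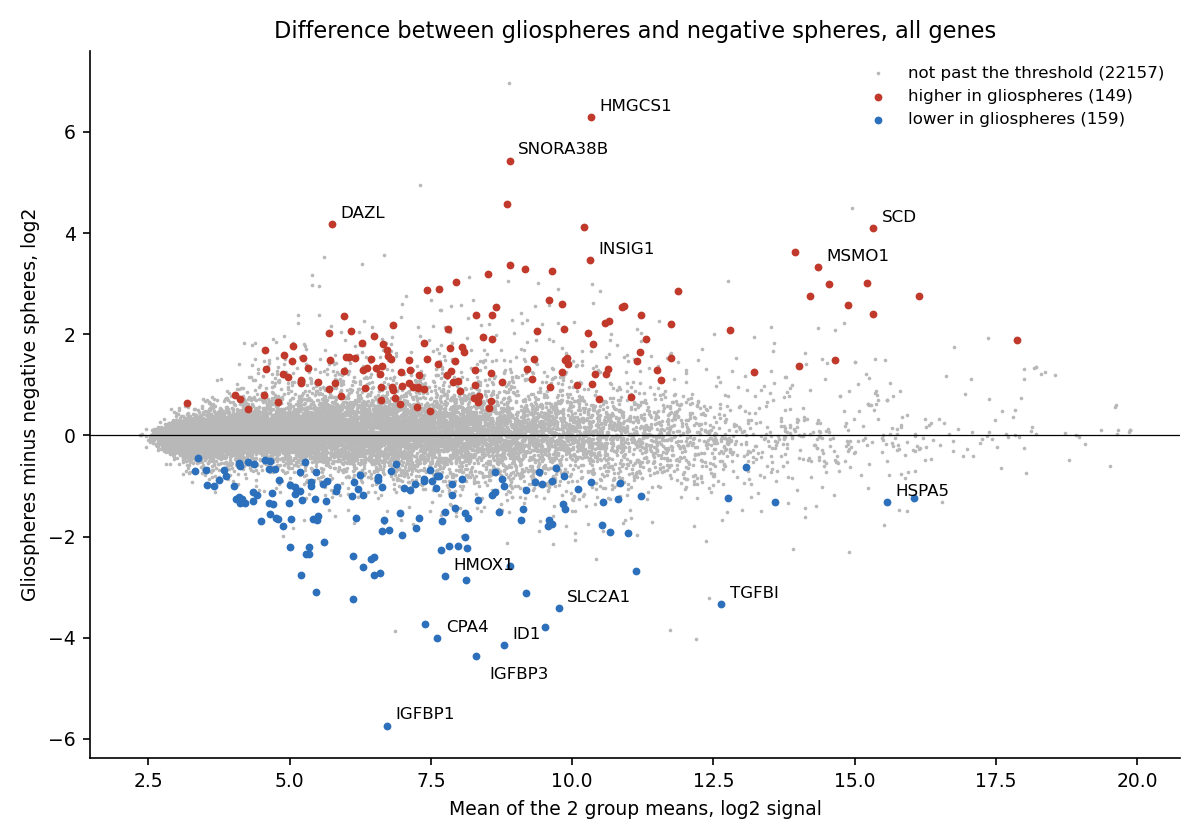
Difference between gliospheres and negative spheres (log2, vertical axis) against the mean of the group means (log2 signal, horizontal axis) for all genes, 1 point a gene, with the 149 genes higher in gliospheres in red and the 159 lower in blue. HMGCS1 lies 6.29 above 0 and IGFBP1 5.74 below it, and some grey genes with large differences did not pass.

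The transcript of the sorted marker was looked at first. The label itself rests on CD133 protein at the cell surface, which arrays do not measure. By flow cytometry, the study reports that CD133-positive cells were enriched in its sphere cultures. PROM1, which encodes CD133, read 3.54, 3.51 and 3.41 in gliospheres and 3.55 and 3.36 in negative spheres, at the background level in all 5 arrays. Its difference was 0.04 (adjusted p 0.925), so the arrays do not separate the groups by this transcript. The intermediate filament gene NES differed by -0.09, the stem cell transcription factor SOX2 by -0.03 and the RNA-binding protein gene MSI1 by -0.01, none of them passing, and the astrocyte filament gene GFAP by -0.04 at a level of 3.53 to 3.60. Of 29 measured glioma stem cell and pluripotency genes, 0 passed in either direction, with a list median of -0.02 and median levels of 3.62 in gliospheres and 3.63 in negative spheres. ABCG2, a drug efflux pump of side-population cells, had the largest difference of that list, with 5.78, 6.27 and 5.37 in gliospheres and 6.34 and 7.14 in negative spheres, and did not pass. In the study's own list of cancer stem cell genes, chosen on samples of this study and so not independent evidence, 0 of 27 measured genes were higher and 2, ID1 and DKK1, lower. The study made that list by PCR, against a control that joined the cell line with the negative population. There most of the list was higher, and ID1 and DKK1 were lower without reaching significance. No marker of another cell type passed: 0 of 12 microglia, 0 of 9 lymphocyte, 0 of 9 endothelial, 0 of 10 mesenchymal and 0 of 10 epithelial markers were called. Their members had means between 3.19 and 15.12, 3.02 and 3.91, 3.24 and 4.58, 3.34 and 17.65, and 3.08 and 5.84 in that order, so the microglia list held a highly expressed member (CD68), as did the mesenchymal list (NT5E, an ectonucleotidase).

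Several genes of cholesterol synthesis were higher in gliospheres. HMGCS1, which makes the HMG-CoA that enters the mevalonate pathway, had the largest rise of any gene that passed, 78.3-fold, and 6 of 10 measured genes from squalene to cholesterol passed, none in the other direction. The rise extended to the regulators SREBF2 and INSIG1 and to fatty acid desaturation, with SCD 17.2-fold higher. The promoters of 4 genes are printed here because SREBP2 acts through such DNA next to NF-Y, a factor that binds CCAAT, and the fourth because the same CCAAT box is part of the promoters of MHC class II genes, described further on. They hold the 250 bases before the annotated start in RefSeq, build GRCh38.p14, read 5′ to 3′ on the strand of the gene, with CCAAT or its reverse complement ATTGG in capitals, and for SREBF2 also the sterol regulatory element core TCACNCCAC, of which N is any base. HMGCS1 lies at chr5:43313413-43313662 (minus strand), MSMO1 at chr4:165327419-165327668 (plus), SREBF2 at chr22:41832855-41833104 (plus) and HLA-DQA1 at chr6:32637156-32637405 (plus).
HMGCS1: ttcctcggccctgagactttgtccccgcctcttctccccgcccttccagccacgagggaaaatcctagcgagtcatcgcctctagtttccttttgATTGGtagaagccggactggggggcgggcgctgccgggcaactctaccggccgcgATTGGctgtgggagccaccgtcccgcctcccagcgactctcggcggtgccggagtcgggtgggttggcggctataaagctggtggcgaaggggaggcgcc
MSMO1: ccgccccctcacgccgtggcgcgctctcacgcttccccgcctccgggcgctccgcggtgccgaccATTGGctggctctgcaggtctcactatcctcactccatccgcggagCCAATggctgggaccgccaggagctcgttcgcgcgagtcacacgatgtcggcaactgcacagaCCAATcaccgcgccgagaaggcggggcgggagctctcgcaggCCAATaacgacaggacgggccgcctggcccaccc
SREBF2: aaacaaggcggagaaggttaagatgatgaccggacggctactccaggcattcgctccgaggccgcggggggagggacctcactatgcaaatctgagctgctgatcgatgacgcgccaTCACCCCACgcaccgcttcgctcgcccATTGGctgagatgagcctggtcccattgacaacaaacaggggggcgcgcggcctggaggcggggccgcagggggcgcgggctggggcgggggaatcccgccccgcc
HLA-DQA1: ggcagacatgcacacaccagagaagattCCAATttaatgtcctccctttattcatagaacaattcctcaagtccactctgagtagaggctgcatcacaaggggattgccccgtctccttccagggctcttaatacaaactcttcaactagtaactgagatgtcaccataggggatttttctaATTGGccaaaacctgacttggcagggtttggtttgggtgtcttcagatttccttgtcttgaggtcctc
CCAAT began 155 and 100 bases before the start of HMGCS1, 185, 139, 76 and 34 bases before that of MSMO1, 106 bases before that of SREBF2, and 222 and 68 bases before that of HLA-DQA1, and TCACNCCAC began 133 bases before that of SREBF2. Over windows of 250 bases before to 50 after a start, CCAAT on either strand stood in 7 of 12 promoters of the mevalonate genes (58.3%), 9 of 11 from squalene to cholesterol (81.8%) and 12 of 14 of MHC class II (85.7%), against 34.6% of 35116 promoters. TCACNCCAC stood in 1.13% of all promoters, in 0 of 12, 0 of 11 and 0 of 21 of the mevalonate, squalene and fatty acid lists, and in 1 of 25 of the SREBP list, that of SREBF2. Such matches describe the letters of these windows only.

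In the mevalonate pathway, 2 of 8 measured genes passed, both higher, with a list median of 1.11 against -0.02 over all genes, and 0.663% of all genes were higher. HMGCS1 read 13.72, 14.59 and 12.14 in gliospheres and 7.00 and 7.38 in negative spheres. All 3 gliospheres values lay far above both negative ones, and the difference of 6.29 ± 0.57 (SE) had an adjusted p of 0.00146. IDI1, which isomerizes the building block of sterols, read 7.54, 8.25 and 6.89 against 5.58 and 5.93, a difference of 1.80 (adjusted p 0.0472). ACAT2, the thiolase of the opening step, differed by 2.20 (adjusted p 0.11), MVD, a decarboxylase, by 1.17, FDPS, which joins the building blocks, by 1.04 and the kinase MVK by 0.53. These 4 genes did not pass although their groups did not overlap, and gliospheres 2 held the highest value of ACAT2 (11.66), MVD (7.65) and MVK (5.86). PMVK and GGPS1, the 2 members with a negative difference, stood at -0.30 and -0.17, and their groups did not overlap either, with gliospheres below. Groups without overlap were thus 6 of 8 with gliospheres above and 2 of 8 below, against 12.2% and 14.5% of all genes. The call of IDI1 ended without gliospheres 1 or 2 or either negative array (adjusted p 0.051 to 0.237), whereas that of HMGCS1 held with each array left out.

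From squalene to cholesterol, all 10 measured genes had a positive difference, 6 passed, and the list median was 1.52. MSMO1, a sterol methyl oxidase of this chain, read 16.01, 16.17 and 15.86 in gliospheres and 12.54 and 12.83 in negative spheres. The arrays of each group lay close together, and the difference of 3.33 ± 0.12 had the smallest adjusted p of the lipid genes, 9.28e-06. DHCR7, the reductase of the last step, read 11.48, 11.43 and 10.90 against 8.55 and 7.48, a difference of 3.25 (adjusted p 0.004). CYP51A1, the lanosterol demethylase, was 2.85 higher (7.21-fold, adjusted p 0.00461), with 13.69, 13.69 and 12.49 against 10.31 and 10.57. SQLE, squalene epoxidase and a rate-limiting enzyme, was 2.57 higher (5.92-fold, adjusted p 0.01). LSS, which closes the sterol rings, read 6.84, 7.34 and 7.42 against 5.81 and 5.56, and SC5D, the lathosterol desaturase, 7.80, 7.85 and 7.56 against 6.89 and 6.71. Their differences of 1.52 and 0.94 were smaller, and both calls ended without gliospheres 2 or either negative array, LSS also without gliospheres 3 and SC5D without gliospheres 1 (adjusted p 0.0705 to 0.145 for LSS and 0.0507 to 0.104 for SC5D), as did that of SQLE without either negative array (adjusted p 0.0535 and 0.0568). NSDHL differed by 1.52, EBP by 1.09 and HSD17B7 by 1.01 without passing, all with gliospheres 3 lowest among the gliospheres.

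Of the 17 measured regulators and carriers of cholesterol, 4 were higher and 0 lower, with a list median of 0.17. SREBF2 itself read 6.81, 6.78 and 6.74 in gliospheres and 5.16 and 5.28 in negative spheres, a difference of 1.56 ± 0.19 (adjusted p 0.00776, and 0.057 without negative spheres 1). INSIG1, which holds the SREBP complex in the endoplasmic reticulum and is itself a target of it, read 12.45, 12.41 and 11.27 against 8.58 and 8.59, a rise of 3.46 (adjusted p 0.00104). STARD4, a cytosolic sterol carrier, was 1.90 higher, with 9.39, 9.88 and 9.34 against 7.63 and 7.64. LPIN1, a phosphatidate phosphatase of lipid synthesis, was 1.84 higher (adjusted p 0.0391), a call that ended without gliospheres 2 or either negative array (adjusted p 0.0935 to 0.164). In the other direction and without passing, INSIG2 differed by -1.40 and the cholesterol efflux pump ABCA1 by -1.28, the latter with 9.40, 8.74 and 10.00 against 10.71 and 10.60. The groups of ABCA1 did not overlap.

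In fatty acid synthesis, 4 of 16 measured genes were higher, 0 lower, and 14 had a positive difference, with a list median of 0.97. SCD, which puts the double bond into stearate and palmitate, read 17.55, 16.49 and 18.11 in gliospheres and 12.95 and 13.62 in negative spheres, a difference of 4.10 ± 0.40 (adjusted p 0.0024). ACACA, the carboxylase that commits acetyl-CoA to fatty acids, was 1.51 higher (adjusted p 0.0179), FADS2, a desaturase of polyunsaturated fatty acids, 1.30 higher (adjusted p 0.00517), and ELOVL5, which lengthens them, 0.88 higher (adjusted p 0.0133). Without negative spheres 1 the adjusted p of ACACA was 0.115 and that of ELOVL5 0.0855, while SCD and FADS2 passed with each array left out. FASN, the synthase itself, read 6.72, 6.10 and 7.18 against 6.08 and 5.11 and did not pass, nor did ACLY at 1.06, ELOVL6 at 1.49 or the fatty acid carrier FABP3 at 1.36. SCD, FASN, ELOVL6 and FABP3 had their highest value in gliospheres 3.

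**Figure D2:**
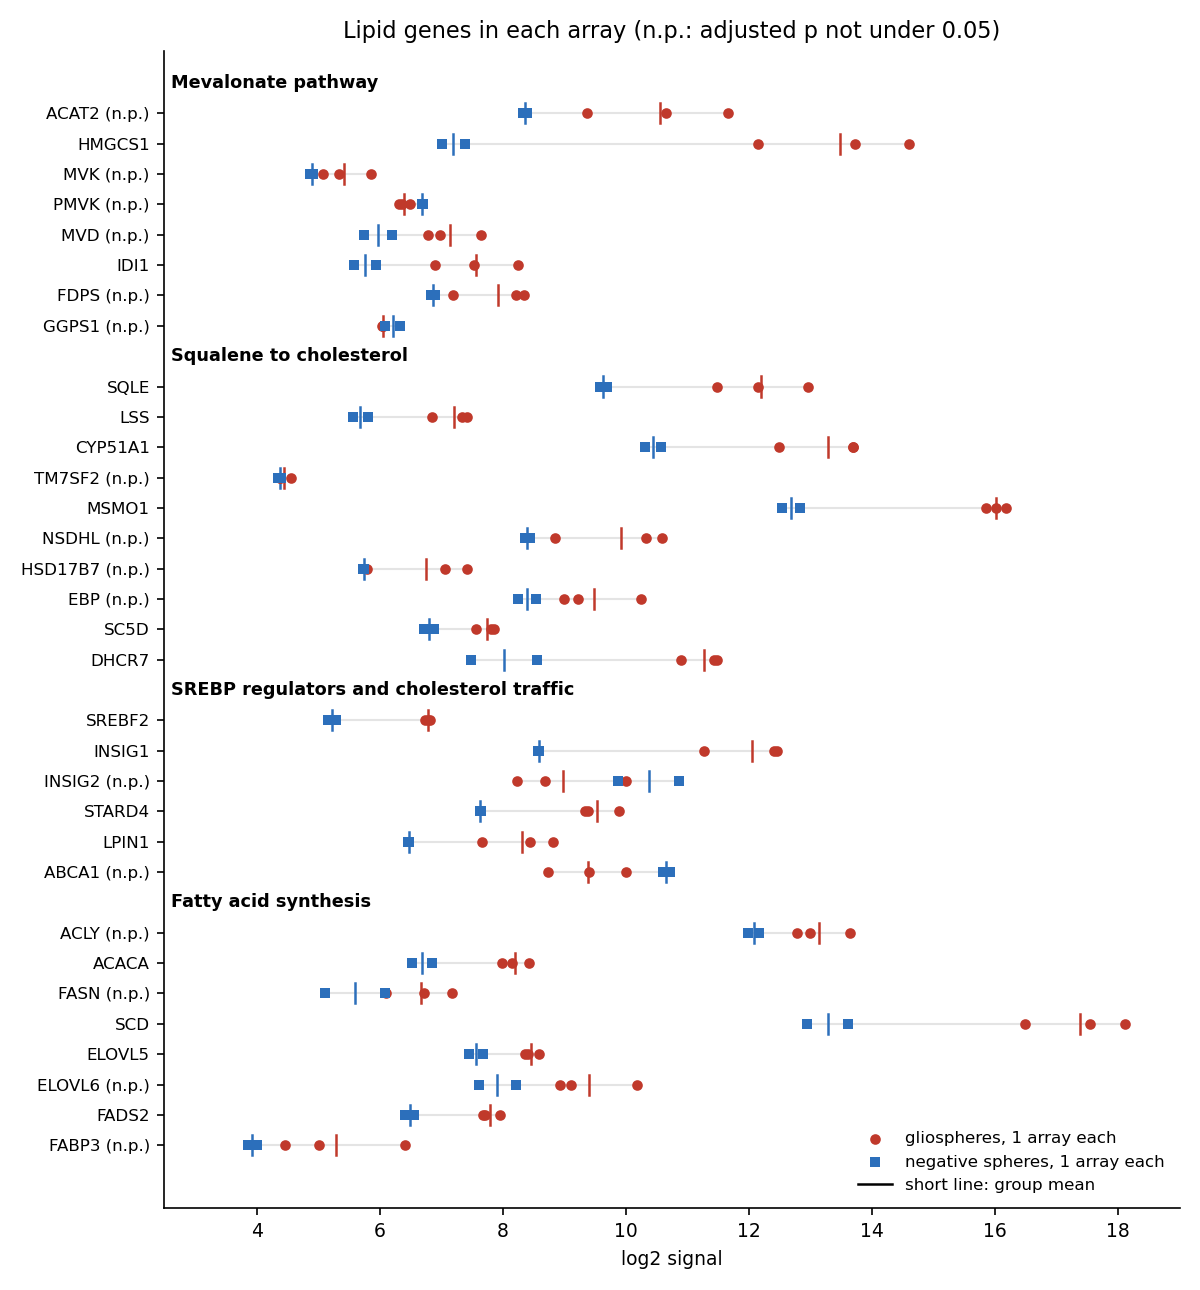
log2 signal (horizontal axis) of genes of cholesterol and fatty acid synthesis in each of the 3 gliospheres arrays (red circles) and 2 negative spheres arrays (blue squares), with short lines at the group means and n.p. for genes that did not pass. HMGCS1, SCD, MSMO1, DHCR7 and INSIG1 show the widest gaps, and PMVK, GGPS1, INSIG2 and ABCA1 lie lower in gliospheres on average.

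Genes of antigen presentation by MHC class II were partly higher in gliospheres. Of 17 measured members 3 passed, all higher, and 12 had groups that did not overlap with gliospheres above, against 12.2% of all genes, with a list median of 0.61. HLA-DQA1 read 7.10, 7.17 and 7.09 in gliospheres and 4.81 and 5.29 in negative spheres, a difference of 2.07 ± 0.20 (adjusted p 0.00218). HLA-DQA2, its close relative, was 1.76 higher (adjusted p 0.00133), and HLA-DPA1 2.09 higher (adjusted p 0.0288, and 0.0705 to 0.0969 without gliospheres 2 or negative spheres 1). HLA-DRA, the alpha chain of the main class II molecule, read 15.80, 15.95 and 15.99 against 12.80 and 14.59. Its difference of 2.22 was the largest of the list, but the negative arrays lay far from each other and it did not pass (adjusted p 0.141). HLA-DRB5, HLA-DRB1 and HLA-DRB4 differed by 1.52, 1.42 and 1.04 without passing. The transactivator of the class, CIITA, read 5.15, 5.53 and 5.31 against 5.26 and 5.30, groups that overlapped, and the invariant chain CD74 differed by 0.59 and did not pass. Class II genes are close copies of each other, and several clusters of the array stand for alternate haplotypes of the same gene, so their probes may share signal. These clusters did not all give the same value: beside the brightest cluster of HLA-DQA1, reported above, its 6 others differed by 0.37 to 1.14, and 3 of them did not pass (adjusted p 0.163 to 0.171). Of the microglia and macrophage markers, AIF1, ITGAM and PTPRC stayed at 3.14 to 3.61 in all 5 arrays, whereas CD68, a lysosomal protein, read 15.49, 14.89 and 15.55 against 14.35 and 15.32 without passing.

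Among the other immune genes, 0 of 17 MHC class I genes passed (median -0.07), and 0 of 30 genes of the interferon response, of which 25 had a positive difference (median 0.28). Over all genes, 10101 of 22465 differences were positive. IFI6, an interferon-induced mitochondrial protein, read 10.17, 9.96 and 12.53 against 7.81 and 8.81. Its difference of 2.57 did not pass (adjusted p 0.158), and gliospheres 3 stood above the other 2. IRAK2, a kinase downstream of Toll-like and interleukin receptors, was the 1 gene of 18 in Toll-like receptor signaling that passed, with 7.49, 8.17 and 8.07 in gliospheres and 5.49 and 5.98 in negative spheres (difference 2.17, adjusted p 0.00655). CD70, the ligand of the T cell receptor CD27, was 3.04 higher, with 8.56, 9.90 and 9.93 against 6.71 and 6.13, a call that ended without gliospheres 2 or either negative array (adjusted p 0.0618 to 0.0912).

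The falls were led by secreted modulators of growth factor signaling. IGFBP1, a binding protein of insulin-like growth factors, read 3.85, 4.04 and 3.66 in gliospheres and 9.53 and 9.64 in negative spheres. The gliospheres values lay at background, and the difference of -5.74 ± 0.13 (53.4-fold lower, adjusted p 1.94e-07) was the only one that passed in the 5 arrays alone. IGFBP3, the main carrier of these factors in plasma, read 5.78, 6.77 and 5.83 against 9.37 and 11.60, a difference of -4.36 (adjusted p 0.00803). TGFA, a ligand of the EGF receptor, was lower by -1.83 (adjusted p 0.0446, and 0.0871 to 0.139 without either negative array). These 3 were the genes that passed among 30 measured binding proteins and ligands, whose median was -0.07.

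In BMP signaling, 3 of 30 measured genes were lower and 0 higher, with a list median of -0.06, against 0.708% of all genes lower. ID1, an inhibitor of basic helix-loop-helix factors and a direct SMAD target, read 5.66, 7.49 and 6.99 in gliospheres and 10.96 and 10.76 in negative spheres, a difference of -4.15 ± 0.42 (17.8-fold lower, adjusted p 0.00264). ID2 was lower by -1.64, with 4.47, 4.55 and 4.77 against 5.90 and 6.59 (adjusted p 0.00461). The SMAD1/5 site GGCGCC stood in 0 of 4 promoters of the ID genes, against 19.2% of all promoters, which says only that these letters are not in these windows. ID2B, a pseudogene nearly identical to ID2, was lower by -2.76, and the signal of both may come from the same transcript. ID3 read 3.72, 3.96 and 5.49 against 4.94 and 4.76, groups that overlapped, and did not pass. SMAD6, an inhibitor in the same pathway, lay near background with a difference of -0.45 (adjusted p 0.0478), a call that ended without any 1 array (adjusted p 0.0693 to 0.158). The BMP antagonist GREM1 read 11.34, 11.43 and 6.64 against 13.42 and 13.87 and did not pass (adjusted p 0.254), with gliospheres 3 far below the other 4 arrays. DKK1, an antagonist of Wnt receptors, was lower by -1.67 (adjusted p 0.00115), while RSPO3, which strengthens Wnt signals, was 1.03 higher (adjusted p 0.0425, and 0.0568 to 0.131 without gliospheres 1 or 2 or either negative array), the 2 genes of 39 in Wnt signaling that passed.

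A few genes of the extracellular matrix were lower in gliospheres, ITGB3 was higher, and no collagen gene passed. Lower were 2 of 25 genes of TGF-beta signaling (median -0.09) and 2 of 29 matrix glycoproteins and proteoglycans (median -0.11). Of 28 matrix proteases and inhibitors 2 were lower (median -0.12), and 0 were higher in any of these 3 lists. TGFBI, a secreted protein that links collagens and integrins, read 10.60, 11.22 and 11.09 in gliospheres and 13.82 and 14.80 in negative spheres (difference -3.33, adjusted p 0.00499). THBS1, thrombospondin, an inhibitor of new vessels and activator of latent TGF-beta, read 4.85, 4.10 and 4.55 against 6.82 and 8.64 (difference -3.23, adjusted p 0.0139). Of 28 collagen genes 0 passed (median -0.03). Of 14 genes of collagen processing 3 were lower, 0 higher, with a median of -0.50, against 0.708% of all genes lower. LOX, which cross-links collagen and elastin, was lower by -2.69, PLOD2, which hydroxylates collagen lysines, by -1.24 and LOXL3, a relative of LOX, by -0.92. Their adjusted p values were 0.0269, 0.0149 and 0.0144, and without 1 of the negative arrays they rose to at most 0.098, 0.0686 and 0.0665.

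Proteases and adhesion molecules followed in part. EFEMP1, a fibulin, was lower by -2.59, with 5.08, 4.64 and 5.28 against 7.24 and 7.95. FAP, a membrane protease of activated stromal cells, read 7.96, 7.60 and 7.29 against 9.89 and 10.48 (difference -2.57, adjusted p 0.0139, and 0.0686 without negative spheres 2). The protease inhibitor TIMP3 was lower by -2.72, a call that ended without gliospheres 2 or negative spheres 2 (adjusted p up to 0.0637), and the protease ADAMTS1 by -1.54, a call that ended without either negative array (adjusted p up to 0.124). Of 32 cell adhesion genes 3 were lower (median -0.12), against 0.708% of all genes. They were CDH11, the mesenchymal cadherin, by -1.66 (adjusted p 0.000459), ICAM1, a ligand of leukocyte integrins, by -1.01 and the protocadherin PCDH9 by -0.56. CDH11 passed with each array left out, while ICAM1 and PCDH9 did not without gliospheres 2 or negative spheres 2, nor PCDH9 without negative spheres 1 (adjusted p up to 0.0614 and 0.0999). ITGB3, the beta chain of the vitronectin receptor, was the 1 of 22 integrin and laminin genes that passed, 0.99 higher (adjusted p 0.0492), and its call ended without gliospheres 2 or 3 or either negative array (adjusted p 0.0693 to 0.143). The collagen receptor chain ITGA2 read 10.45, 12.36 and 7.77 against 13.45 and 14.97 without passing.

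**Figure D3:**
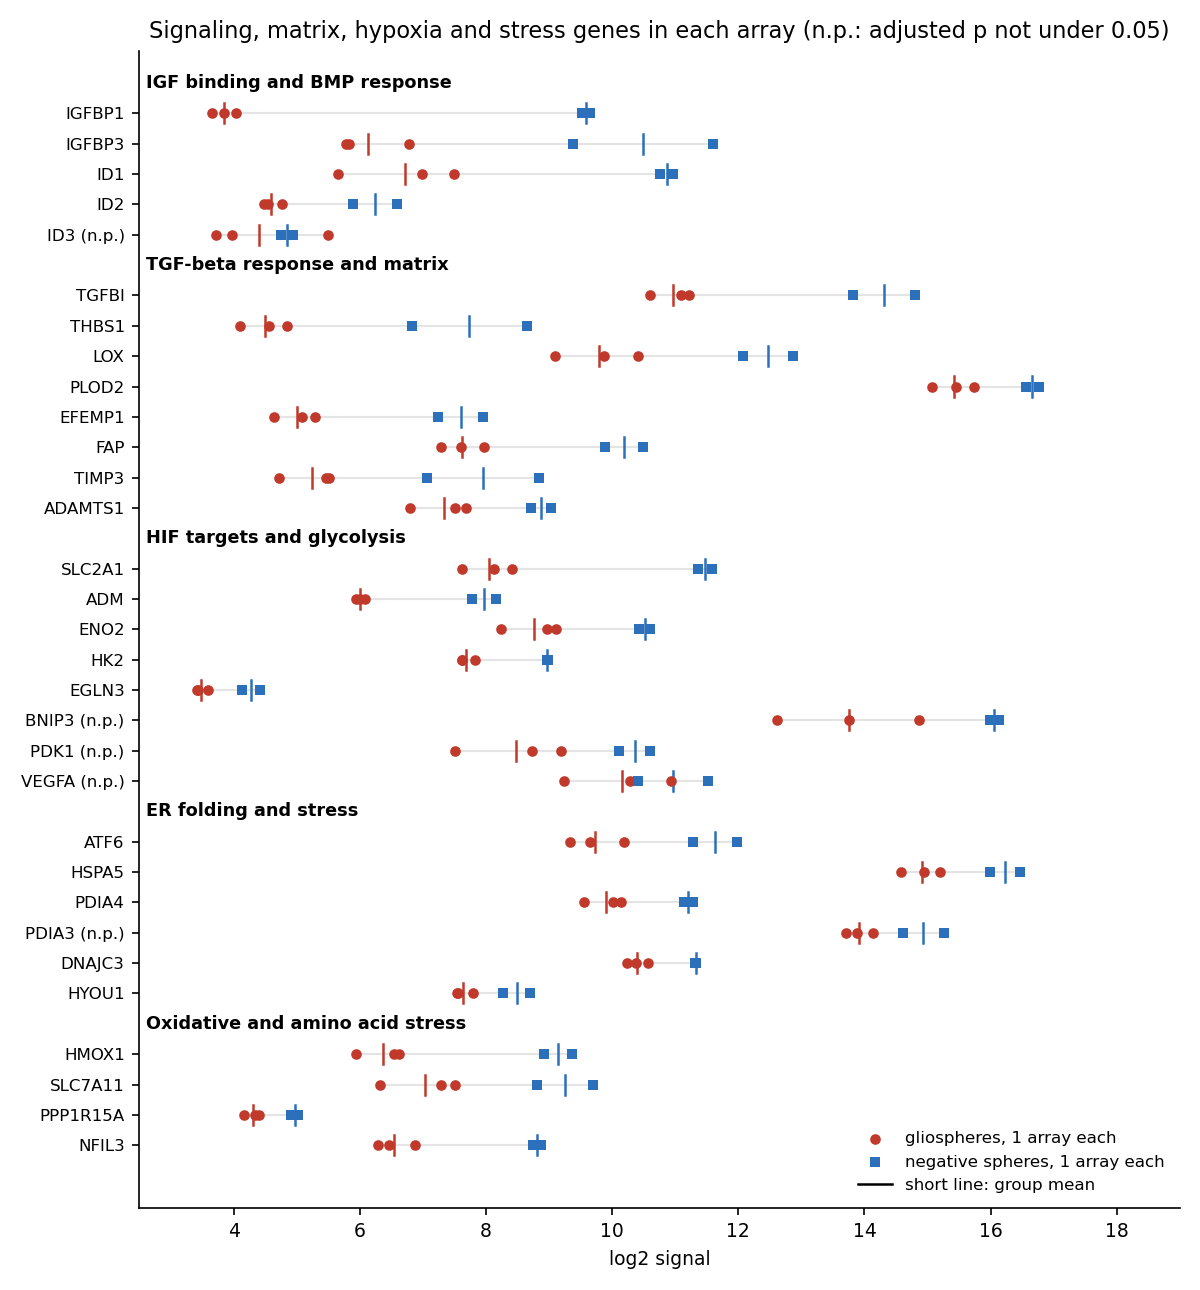
log2 signal (horizontal axis) of genes of growth factor signaling, matrix, hypoxia and stress in each of the 3 gliospheres arrays (red circles) and 2 negative spheres arrays (blue squares), with short lines at the group means and n.p. for genes that did not pass. IGFBP1, ID1 and SLC2A1 show the widest gaps, and the groups of ID3 and VEGFA overlap.

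Some HIF targets and glycolytic genes were lower in gliospheres. Of 34 measured members 5 were lower and 0 higher, 30 had a negative difference and 23 had groups that did not overlap with gliospheres below, against 0.708% of all genes called lower and 14.5% without overlap, with a list median of -0.76. SLC2A1, the glucose transporter GLUT1, read 8.12, 8.40 and 7.62 in gliospheres and 11.36 and 11.58 in negative spheres, a difference of -3.42 ± 0.28 (10.7-fold lower, adjusted p 0.001). ADM, a vasodilator peptide, was lower by -1.96 (adjusted p 0.000391), with 6.00, 6.09 and 5.93 against 7.78 and 8.16. ENO2, an enolase of neurons and hypoxic cells, was lower by -1.75 (adjusted p 0.0367), HK2, the hexokinase of many tumors, by -1.28 (adjusted p 0.0254) and EGLN3, a HIF prolyl hydroxylase near background here, by -0.79 (adjusted p 0.0104). SLC2A1, ADM and EGLN3 passed with each array left out, while ENO2 and HK2 lost the call without gliospheres 2 or either negative array (adjusted p up to 0.137 and 0.122). The mitophagy receptor BNIP3 read 13.76, 14.87 and 12.62 in gliospheres, all below both negative arrays, with a difference of -2.31 (adjusted p 0.0817), and ERO1A, NDRG1 and PDK1 differed by -2.25, -2.07 and -1.88 without passing. PGK1 and VEGFA differed by -0.84 and -0.81, and the groups of VEGFA overlapped. The HIF core ACGTG stood in 25 of 59 promoters of the list (42.4%), against 21.4% of all promoters, with several promoters counted for some genes. Of the 5 genes called lower, HK2 and ENO2 had a match, while none was found for SLC2A1, ADM and EGLN3. The list was drawn up from known HIF targets and glycolytic genes, so this share describes its letters only. Whether HIF caused the falls was not tested. Among 20 genes of angiogenesis 3 were lower and 0 higher, ADM, the glycoprotein gene STC2 and the ligand gene APLN, the last by -1.06 (adjusted p 0.0478, and 0.0508 to 0.155 without gliospheres 2 or 3 or either negative array).

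Glycogen genes moved in opposite directions. PYGB, the brain form of glycogen phosphorylase, which breaks glycogen down, read 8.83, 10.30 and 11.20 in gliospheres and 6.96 and 6.90 in negative spheres (difference 3.18, adjusted p 0.0406, and 0.0956 to 0.168 without gliospheres 2 or either negative array). GYS1, the synthase that builds it, read 5.85, 5.86 and 5.80 against 7.56 and 7.45 (difference -1.66, adjusted p 0.000994). They were the 2 of 15 measured glycogen genes that passed.

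Some genes of the endoplasmic reticulum were lower in gliospheres, each by a call that ended with 1 array left out. Of 29 measured genes of the unfolded protein response 5 were lower and 0 higher, 26 had a negative difference, and the list median was -0.38. Over all genes 0.708% were lower, and 10101 of 22465 had a positive difference. HSPA5, the chaperone BiP, read 15.20, 14.59 and 14.94 against 15.99 and 16.46 (difference -1.32, adjusted p 0.0178). ATF6, a sensor that is cut to a transcription factor when folding fails, was lower by -1.91, with 10.19, 9.65 and 9.32 against 11.28 and 11.98. PDIA4, a disulfide isomerase, was lower by -1.31, DNAJC3, which restrains the kinase PERK, by -0.94 and the chaperone HYOU1 by -0.85. The calls of HSPA5, ATF6, PDIA4 and HYOU1 ended without negative spheres 2, that of HYOU1 also without gliospheres 2 or 3, and those of DNAJC3 and PDIA4 without negative spheres 1 (adjusted p up to 0.0706, 0.0535, 0.0585 and 0.134 for the former 4 and 0.0592 for DNAJC3), and PDIA3, at -1.03, did not pass. In protein export, the signal peptidase subunit SEC11C was lower by -2.01 and SSR2, a part of the translocon, by -1.08, the 2 of 19 that passed. Both lost the call without gliospheres 2 or negative spheres 2, SEC11C also without negative spheres 1 and SSR2 without gliospheres 3 (adjusted p up to 0.189 and 0.117).

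Of 25 genes of the ATF4 and amino acid response 3 were lower and 0 higher, with a median of -0.43, against 0.708% of all genes lower. SLC7A11, the cystine importer that feeds glutathione, read 6.31, 7.28 and 7.51 against 8.80 and 9.70 (difference -2.22, adjusted p 0.0402, and 0.0571 to 0.127 without gliospheres 2 or either negative array). STC2, a secreted glycoprotein, was lower by -1.60 and PPP1R15A, which restarts translation after stress, by -0.67, and without gliospheres 2 neither passed, nor PPP1R15A without either negative array (adjusted p up to 0.0573 and 0.122). HMOX1, the heme oxygenase of the oxidative stress response, read 6.53, 5.93 and 6.61 against 9.37 and 8.91 (difference -2.78, adjusted p 0.00144), although 19 of the 22 genes of its list had a positive difference (median 0.38) and no other passed. NFIL3, a transcription factor of the clock, was lower by -2.27 with 6.46, 6.29 and 6.87 against 8.87 and 8.75, the 1 of 19 clock genes that passed. All 10 measured metallothionein genes, which bind zinc and copper, had a negative difference (median -0.62) and 0 passed. MT1X read 12.03, 11.56 and 8.81 against 14.36 and 13.69, with gliospheres 3 lowest.

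**Figure D4:**
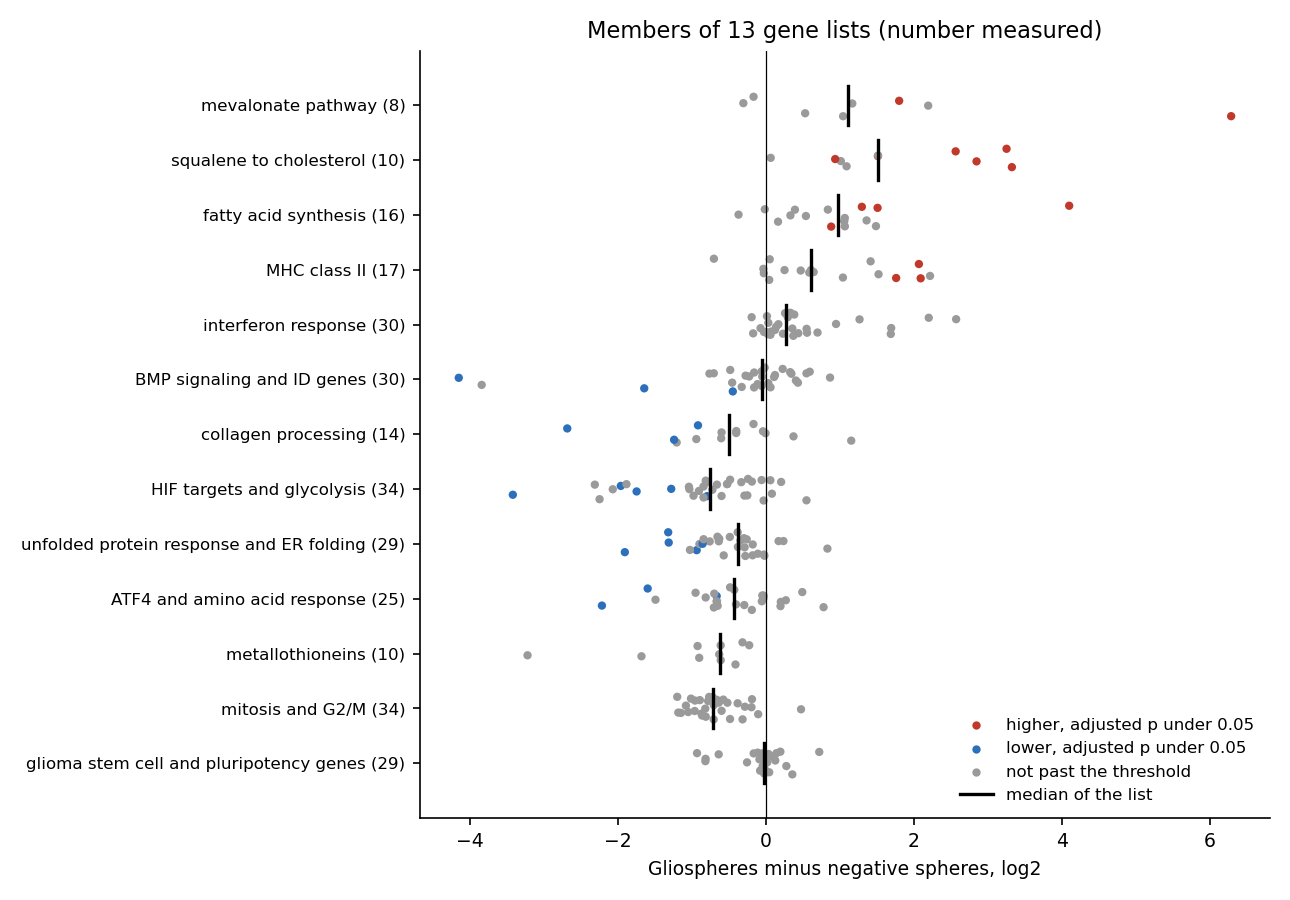
Difference between gliospheres and negative spheres (log2, horizontal axis) of each measured member of 13 gene lists, 1 point a gene, red and blue for genes that passed and black lines at the list medians. The sterol and fatty acid lists lie to the right of 0 with medians of 1.11, 1.52 and 0.97, and the HIF and mitosis lists to the left with medians of -0.76 and -0.72.

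The remaining large changes belonged to single neural and germ cell genes and to genes of no list. Of 14 genes of ganglioside synthesis 1 was lower, and 11 had a positive difference (median 0.46). Among 23 genes of synaptic vesicle exocytosis 2 were lower and 0 higher (median -0.01). Of 36 semaphorin, ephrin and Eph genes 1 was higher and 1 lower, as of 27 germ cell and cancer-testis genes (medians -0.03 and -0.08). ST8SIA5, a sialyltransferase of brain gangliosides on chromosome 18, read 3.93, 4.08 and 3.76 against 6.95 and 7.07, a fall to background of -3.09 ± 0.11 (adjusted p 9.19e-06). SLC1A1, a neuronal glutamate transporter, was lower by -2.86, SNAP25, a SNARE protein of synaptic vesicles, by -2.18 and SYT11, a synaptotagmin, by -1.13. Of these, SNAP25 lost the call without gliospheres 1 or 3 or negative spheres 2 (adjusted p up to 0.0978) and SYT11 without negative spheres 1 (0.0673). EPHA7, an ephrin receptor, was 2.37 higher, with 6.52, 7.81 and 7.14 against 4.45 and 5.12 (adjusted p 0.034), while its relative EPHA3 was lower by -1.34 (adjusted p 0.0438, and up to 0.1 without any 1 gliospheres array). DAZL, a germ cell protein that controls translation, read 6.47, 7.45 and 9.62 against 3.81 and 3.51, off in the negative cultures as far as background allows (difference 4.18, adjusted p 0.0335), and MAGEC1, a cancer-testis antigen, was lower by -1.25. ABCC2, an export pump, was 2.89 higher, with 8.08, 8.94 and 10.24 against 6.14 and 6.25. DAZL, ABCC2 and EPHA7 lost the call without gliospheres 2 or either negative array (adjusted p up to 0.137, 0.19 and 0.192). CPA4, a carboxypeptidase, fell by 4.01 (16.2-fold, adjusted p 0.000174), the zinc finger gene ZNF175 by 3.79, INSYN2B, a gene of inhibitory synapses, by 3.73 and PIAS2, a SUMO ligase, by 3.12, all with each array left out. The non-coding gene LOC151760 was 4.12 higher (adjusted p 0.00669, and 0.0536 without negative spheres 1).

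Genes of division did not pass, and their list median turned on 1 array. Of 34 measured mitosis genes 0 passed and 33 had a negative difference, with a list median of -0.72, yet the median level was 11.24, 10.51 and 8.65 in the gliospheres arrays against 10.94 and 11.13 in negative spheres. TOP2A, the topoisomerase of dividing cells, read 14.05, 13.25 and 10.87 against 13.82 and 13.92, with gliospheres 1 above and gliospheres 3 far below the negative arrays. UBE2C, CENPF and TTK differed by -1.20, -1.18 and -1.08, with 7.42, 9.03 and 7.07 in gliospheres 3. In UBE2C all 3 gliospheres arrays lay below both negative arrays. It was 1 of 5 mitosis genes of 34 with such groups, against 14.5% of all genes. Without gliospheres 3 the mitosis median was -0.11. Of 35 genes of DNA replication 0 passed (median -0.19). Other genes were set apart by that array: the elastase inhibitor PI3 read 16.65, 15.64 and 4.80 against 5.39 and 5.40, the alarmin IL33 10.32, 12.69 and 6.31 against 4.71 and 4.95, and the chemokine CXCL8 13.60, 14.84 and 6.88 against 8.94 and 11.42. The stromal genes PDGFRB and COL1A2 ran the other way, at 10.50 and 12.13 in gliospheres 3 and at most 6.60 and 8.95 in the other 4 arrays. None of these 5 passed.

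Small structural RNAs, looked at after their values were seen, made up many of the rises. Of 1023 such genes other than microRNAs 40 were higher (3.91%) and 4 lower, against 0.663% and 0.708% of all genes. H/ACA small nucleolar RNAs, which guide pseudouridylation of ribosomal RNA, had 4 of 64 higher and 59 of 64 with a positive difference (median 0.92). Their median level was 7.40, 8.37 and 6.57 in gliospheres and 6.20 and 6.09 in negative spheres, without overlap, while the 3 arrays of the cell line, at 7.20, 10.76 and 6.88, spread further than that difference. SNORA38B read 11.57, 12.81 and 10.46 against 6.19 and 6.18 (difference 5.43, adjusted p 0.00506), and SNORA65, SNORA11 and SNORA23 were 4.58, 3.37 and 3.01 higher. Of 493 genes and pseudogenes of 5S ribosomal RNA 31 were higher (6.29%) and 1 lower, with a class median of 0.11. RNA5SP85 was higher by 3.30 and RNA5S9 by 2.75. In the cell line they read 8.62, 13.75 and 8.94, and 15.30, 19.20 and 15.78, which spread further than those differences. The 5S genes are near-identical copies whose probes may read 1 RNA, so their count is not one of independent genes. Of 216 U small nuclear RNA genes and pseudogenes 0 passed. The C/D small nucleolar RNAs had 3 of 173 higher, SNORD71, SNORD63 and SNORD117, and 3 lower, the Y RNAs 2 of 56 higher, RNY5 by 2.88 and RNY1 by 2.40, and the microRNA genes 1 of 1033 higher. Of these, SNORA38B, RNA5SP85 and RNY5 passed with each array left out and the others lost the call with at least 1 array left out, RNA5S9 without gliospheres 2 or negative spheres 2 (adjusted p up to 0.0829).

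The genes lower in gliospheres were not spread evenly over the genome, as seen after the values were known. Over 7997 protein-coding genes with a mean of at least 5, placed in RefSeq order, chromosome 18 had a median difference of -0.23 (128 genes, 0 higher and 7 lower, against 93 higher and 104 lower over all 7997), outside the range of -0.07 to 0.16 of the other chromosomes. Chromosome 1 had the most genes called lower, 23 of 780, with a median of -0.07. A border was placed on chromosome 18 where it best split these same differences into 2 parts, so the contrast across it is a description only. The 63 genes from USP14 to GALNT1 had a median of 0.07, and the 65 genes from RMP24 to ADNP2 a median of -0.65, 54 of them (83.1%) negative against 45.9% over all 7997. Among the latter were 6 that passed, the tubulin glutamylase subunit TPGS2 by -1.31, SIGLEC15, a lectin of osteoclasts, by -1.87, PIAS2, SEC11C, the apoptosis gene PMAIP1 by -0.96 and the cytochrome CYB5A by -1.46. DCC, the netrin receptor, at -2.77, and ST8SIA5 lie on the same chromosome. SERPINB4, a protease inhibitor, ran against the rest at 3.39 and did not pass. Relative to the mean of the negative arrays and to each array's median over all 7997 genes, the stretch stood at -0.27 in gliospheres 1, -0.77 in gliospheres 2 and -0.95 in gliospheres 3. It stood between -0.14 and -0.26 in the 6 treated gliospheres arrays, and at -0.16, 0.04 and -0.33 in the cell line, so no other array of the series came as low as gliospheres 2 and 3. Windows of 20 consecutive genes were taken every 5 genes, so neighboring windows share genes and are not separate findings. Of 1524 windows, with 5th and 95th percentiles of -0.23 and 0.26, the lowest was at -0.89, from SEC11C to CYB5A. Of the 10 lowest, 8 lay on chromosome 18. The other 2 lay on chromosome 1, from ANP32E to PIP5K1A at -0.62 and from PRPF3 to POGZ at -0.59. PIAS2 and ST8SIA5 passed with each array left out, TPGS2, SEC11C, PMAIP1, CYB5A and DCC lost the call without negative spheres 2 and SIGLEC15 without negative spheres 1 (adjusted p up to 0.225). The calls of SEC11C, PMAIP1, CYB5A and DCC also ended without gliospheres 2, those of PMAIP1 and DCC without gliospheres 3 and those of SEC11C, PMAIP1 and CYB5A without negative spheres 1. The cause of the low stretch was not tested.

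**Figure D5:**
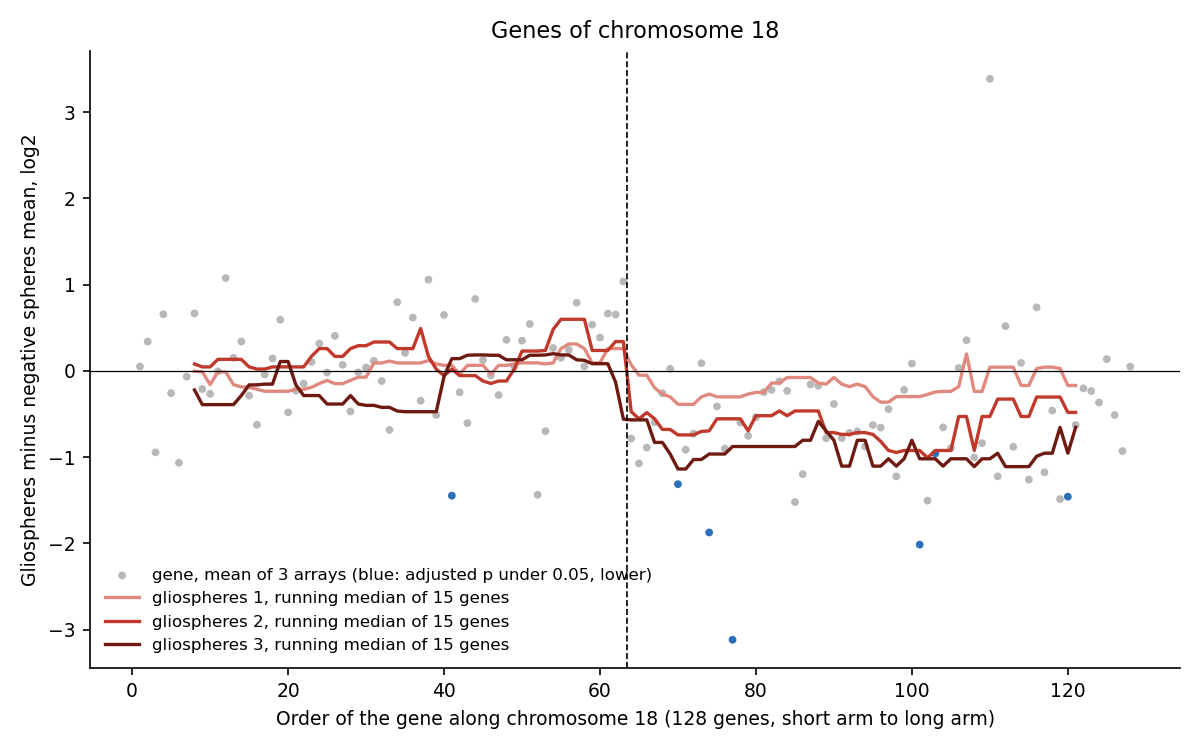
Difference from the negative spheres mean (log2, vertical axis) of 128 protein-coding genes in their order along chromosome 18 (horizontal axis), with points for the mean of the gliospheres arrays, blue where a gene passed, and lines for the running median of 15 genes in each gliospheres array. Right of the dashed line, after GALNT1, the medians of gliospheres 2 and 3 drop below those to its left, and gliospheres 1 drops less.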

How the data were processed

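RNA was hybridized to GeneChip Human Transcriptome Array 2.0 arrays, which carry probes along exons and, for many non-coding RNAs, along the whole transcript. The authors normalized the scans with SST-RMA in the Transcriptome Analysis Console, so the deposited values are log2 signals, 1 per transcript cluster. No probe intensities were used here, and their number of arrays limits the precision. The labels gave the groups. Of 70523 features, 67528 transcript clusters were kept and 2995 others left out. Gene names came from the platform annotation: 23781 clusters had 1 symbol, 1543 several and 42204 none, and the cluster with the highest mean stood for a gene.

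The contrast was tested with limma (version 3.58.1, R 4.3.3) in a fit of 4 groups and 11 arrays, Benjamini-Hochberg adjusted over all clusters at 0.05. Members and 57 gene lists (1254 of 1400 entries measured) were chosen with earlier results of these arrays known, so lists are described by counts and medians. Named are the 15 largest rises and falls that passed among genes, up to 8 members of a list that passed and up to 4 others, the sorted marker and stem cell markers, and genes said to be chosen after their values were seen. Same-numbered arrays deviated together in 5 of 15 pairs (correlation above 0.1), so the numbers were not taken to pair samples. Alternatives were other groups in the fit, an intensity trend, a filter on dim clusters, quantile normalization, median centring, array weights, the replicate block, clusters with 1 symbol and leaving out each array. Promoters came from RefSeq.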

Additional observations from a re-analysis of the deposited data

How the results depend on the processing

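The counts moved with the spread assumed. Of the 523, 1 still passed with only the 5 arrays compared and 98 with the cell line as a group of its own. An intensity trend and robust prior left 341, quantile normalization 442 and median centring 447. Array weights left 273 and the replicate block 238. Against 291 higher and 232 lower clusters, the 5 arrays alone gave 0 and 1, the fit with the cell line 64 and 34, array weights 147 and 130, and the replicate block, which pairs arrays by number, 150 and 111. The intensity trend gave 183 higher. Quantile normalization gave 217 higher and 447 lower, which turns the balance of the calls. With 1 array left out, the higher count ran from 145 to 658, the lower from 187 to 327 and the count at a fold of 2 from 1912 to 2496. That last count, 1821, was 722 over clusters with 1 symbol and 432 at a log2 difference of 2.

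Differences that changed sign belonged to genes that did not pass. With 1 array left out, PROM1 ran from -0.0591 (without negative spheres 2) to 0.1295, NES from -0.1831 to 0.0164 (without gliospheres 2), SOX2 from -0.1741 to 0.1122 (without negative spheres 1, and 0.036 without gliospheres 1), MSI1 from -0.0801 to 0.0519 (without negative spheres 1, and 0.004 without gliospheres 1), the log2 difference of CIITA from -0.0536 (without gliospheres 2) to 0.1351 and COL1A2 from -0.1126 (without gliospheres 3) to 1.9302. Quantile normalization gave 0.0136 for MSI1 and -0.0862 for CIITA, and median centring 0.0144 for MSI1. The cause of these moves was not tested. Signals near 3.6 lie at background, which limits every gene at that level.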

Other observations

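ERG28, MMAB and the zinc finger genes were looked at after their values were seen. ERG28 and MMAB were also higher in gliospheres. ERG28, a scaffold of sterol enzymes, read 13.99, 14.19 and 13.36 in gliospheres and 12.48 and 12.69 in negative spheres, a difference of 1.26 (limma adjusted p 0.0328, and 0.0526 to 0.174 without gliospheres 1 or 2 or either negative array). MMAB, an enzyme of vitamin B12 metabolism whose gene shares a promoter region with MVK, was 1.57 higher, with 7.49, 8.11 and 6.99 against 6.02 and 5.89 (adjusted p 0.0296, and 0.0959 and 0.118 without either negative array).

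Zinc finger genes, most of which encode DNA-binding repressors that lie in clusters of related copies, had most of their calls on chromosome 19. Of 230 measured ZNF genes on chromosome 19, 9 were lower (3.91%) and 0 higher, with 152 negative differences and a median of -0.07. Of 29 on chromosome 7, 2 were lower and 0 higher, with 16 negative differences and a median of -0.01, and of 214 on other chromosomes 0 were lower and 1 higher, with a median of 0.03, against 0.708% of all genes lower. ZNF93 read at most 4.07 in gliospheres and 5.12 and 5.64 in negative spheres, ZNF675 3.42, 3.67 and 3.56 against 4.64 and 5.11, and ZNF138, on chromosome 7, 6.26, 6.23 and 5.87 against 7.11 and 7.18. Their differences were -1.36, -1.33 and -1.02 (adjusted p 0.0065, 0.00396 and 0.0106), and that of ZNF138 did not pass without either negative array (adjusted p up to 0.0537). Most of these genes lie close to background, and neighboring copies resemble each other, so their probes may share signal.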
